A study of Mus musculus with 2 samples.

Results

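Fragments of Y RNAs, vault RNA, 7SK RNA, 7SL RNA, small nuclear RNAs (snRNAs) and ribosomal RNAs (rRNAs) were taken from a small RNA sequencing study of aging mouse brain. A fragment is a distinct read sequence, called a tag here. A tag was a member if it had no undetermined base, had 1 to 60 perfect matches in the mouse genome (mm9), and lay on the sense strand inside a gene typed misc_RNA, snRNA, rRNA or Mt_rRNA in GENCODE M1 and in no miRNA, snoRNA or mitochondrial tRNA gene. Of 789591 tags in the series, 3228 were members, and they lay on 494 of the 2244 genes of these types. No tag was lost to the exclusion of the other small RNA genes.

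The study compared whole brains of male C57BL/6J mice at 5 months (young) and at 24-25 months (old). Total RNA was run on a gel, the fraction of 18 to 30 nt was cloned, and the libraries of 2 mice were combined at each age, so there was 1 sequenced library per age. The animals had no other treatment or genotype in the labels. With 1 library per age there is no replicate check of any difference between the ages, and no test was made. Values are reads per 1000000 total reads (RPM) in each library and log2 ratios of old over young, given with the 95% exact (Clopper-Pearson) interval in brackets. The intervals cover counting error only and not the variation between mice or libraries. Reads of a tag on several genes were divided evenly among them, so read numbers are rounded sums.

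The young library held 4523267 reads and the old library 6658732. Tags were 17 to 26 nt long in both libraries, so a fragment of over 26 nt was not seen. Member tags had 5026 young and 7262 old reads, which is 0.111% and 0.109% of all reads, or 1111 and 1091 RPM (log2 ratio -0.03 [-0.08 to 0.03]). Annotated miRNA genes took 60.5% and 63.4% of reads. The precursors of miR-124, a neuronal miRNA, had 31518 and 13439.9 RPM, against 245 and 128 RPM for the erythroid miR-451 and 1019 and 995 RPM for the muscle miR-206. Whether fewer cells of a type or less RNA per cell lies behind a lower value cannot be told apart in bulk brain.

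Several of the RNAs that gave these fragments are abundant and stable. Y RNAs are short RNA polymerase III transcripts that fold into a stem of their paired ends and a loop, bind the Ro60 and La proteins, and are known for giving stable end fragments in many tissues. 7SK RNA holds the elongation factor P-TEFb in an inactive complex, and 7SL is the RNA of the signal recognition particle, which directs nascent proteins to the endoplasmic reticulum. The snRNAs U1, U2, U4, U5 and U6 build the major spliceosome and U11, U12, U4atac and U6atac the minor spliceosome, while U7 directs the 3′ end processing of histone mRNAs. mt-Rnr1 and mt-Rnr2 encode the 12S and 16S rRNAs of the mitochondrial ribosome, and 5S and 5.8S rRNA belong to the large subunit of the cytosolic ribosome.

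The Y RNA fragments had the most reads among the nuclear families, and 4 sequences are shown for the ends they came from. Rny1 and Rny3 are the mouse Y RNA genes, and both lie on chromosome 6 between Ezh2 and Pdia4. The capitals mark the 8 bases that the 5′ fragments of both genes share, from base 4 in each RNA. The fragment from the 3′ end of Rny1 was the most-read member tag.
Rny1, bases 84 to 109: ttctcactactgcacttgactagtct
Rny1, bases 1 to 23: ggcTGGTCCGAaggtagtgagtt
Rny3, bases 1 to 24: ggtTGGTCCGAgagtagtggtgtt
Rny3, bases 3 to 28: tTGGTCCGAgagtagtggtgtttaca

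A run of 10 bases was common to the 7SK tag with the highest ratio and the most-read internal tag of mt-Rnr2, and it is shown in capitals. The second 7SK tag begins 1 base inside the run and holds 9 bases of it. Other tags hold the run as well, and some tags that were higher in the old library lacked it.
Rn7sk, bases 240 to 261: aggtCCATTGTAGGagaacgta
Rn7sk, bases 245 to 266: CATTGTAGGagaacgtagggta
mt-Rnr2, bases 505 to 528: CCATTGTAGGcctaaaagcagcca

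The following tags lay at the first or the last base of their RNA and were the most-read tags of their families. They are shown because reads at these ends are described further on. The most-read tags of U2, 5S rRNA and mt-Rnr1 lay inside the RNA.
mt-Rnr2, bases 1 to 21: actaatcctagccctagccct
U5, bases 1 to 17: atactctggtttctctt
U1, bases 148 to 165: cgttcgcgctctcccctg
U7, bases 43 to 62: acttcggtcggaaaacccct
U11, bases 110 to 134: ggtgatcgttggtcccggcgccctt

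By gene type, the misc_RNA genes had 2274 young and 3208 old reads, or 503 and 482 RPM, with a log2 ratio of -0.06 [-0.14 to 0.02]. The snRNA genes had 653 and 529 reads, or 144 and 79.4 RPM, and their ratio of -0.86 [-1.03 to -0.69] was the lowest of the 4 types. Nuclear rRNA genes had 353 and 375 reads, or 78.0 and 56.3 RPM (-0.47 [-0.68 to -0.26]). The mitochondrial rRNA genes had 1746 and 3150 reads, or 386 and 473 RPM (0.29 [0.21 to 0.38]). The young library thus held more snRNA and nuclear rRNA fragments by RPM, and the old library more mitochondrial rRNA fragments. The choice of scaling moves all ratios together, by 0.29 with the trimmed mean of M values (TMM) and by 0.56 with DESeq2 size factors. Both DESeq2 size factors were 1, so that alternative applies no depth scaling and its shift is the difference in depth. Under each alternative computed, snRNA fragments were lower in the old library (-0.93 to -0.30) and mitochondrial rRNA fragments higher (0.23 to 0.85), while the sign for misc_RNA, nuclear rRNA and all fragments depended on the alternative.

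**Figure D1:**
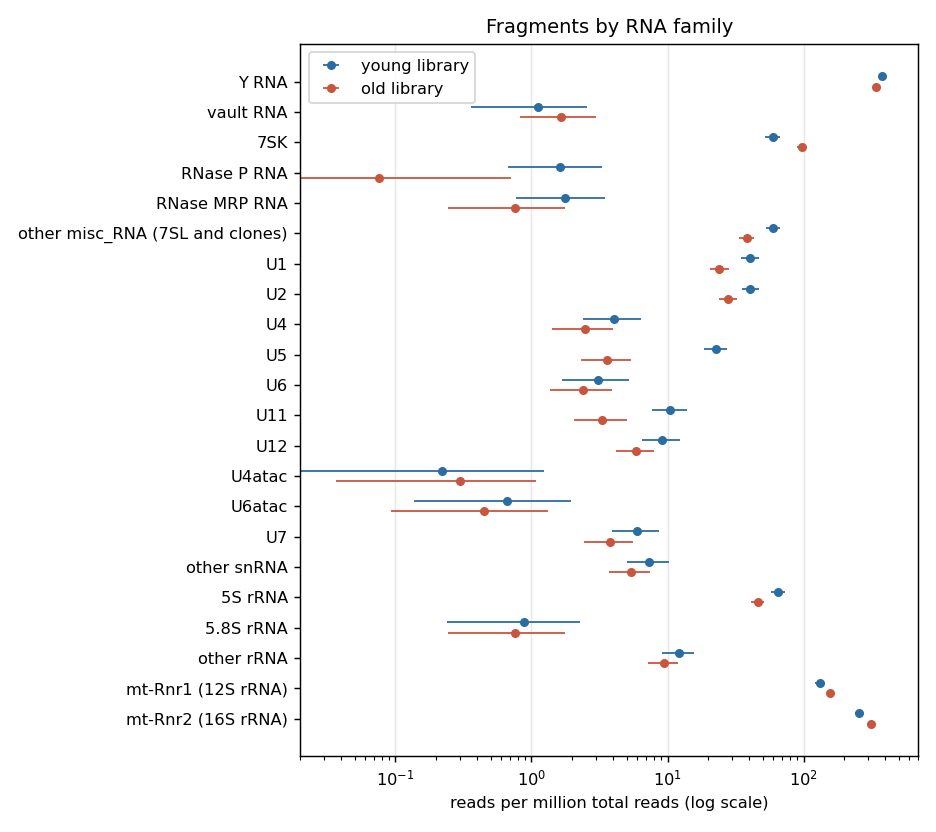
RPM (log scale) for each RNA family in the young (blue) and old (red) library, with 95% exact Poisson intervals of the counts, 1 library per age. Intervals that reach the left edge go on past it. Y RNA (379 and 344 RPM) and mt-Rnr2 (254 and 316 RPM) lie farthest to the right, and the points of U5 (22.6 and 3.60 RPM) are the farthest apart among families with at least 10 reads in a library.

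At the level of genes, 42 member genes had at least 10 reads in a library. Of these, 1 (2.38%) was at least 2-fold higher in the old library, where 8.28% of all 1594 annotated genes with as many reads were. At least 2-fold lower were 6 member genes (14.3%), where 17.5% of all annotated genes were. With genes of the same tags counted as 1, the shares were 2.70% and 16.2% of 37. The 1 higher gene was Rn7sk and the 6 lower genes were U11 and 5 copies of U5 that share most of their tags. The call of Rn7sk rests on divided reads. Its 263 young and 636 old whole reads were less than 2-fold higher in the old library by RPM. The median log2 ratio was -0.50 over the 42 member genes and -0.20 over all annotated genes. It was -0.68 over 277 miRNA genes, of which 1.44% were higher and 28.2% lower, and -0.69 over 44 snoRNA genes, of which 4.55% were higher and 38.6% lower. Over 22 mitochondrial tRNA genes it was 0.12, with none higher or lower. Among single tags with at least 10 reads in a library, 29 of 117 member tags were at least 2-fold higher in the old library and 17 lower, beside 8.67% and 31.5% of all 3843 perfectly matching tags. The tags of the 2 mitochondrial rRNAs and of the Y RNAs are not independent of each other, since many overlap.

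**Figure D2:**
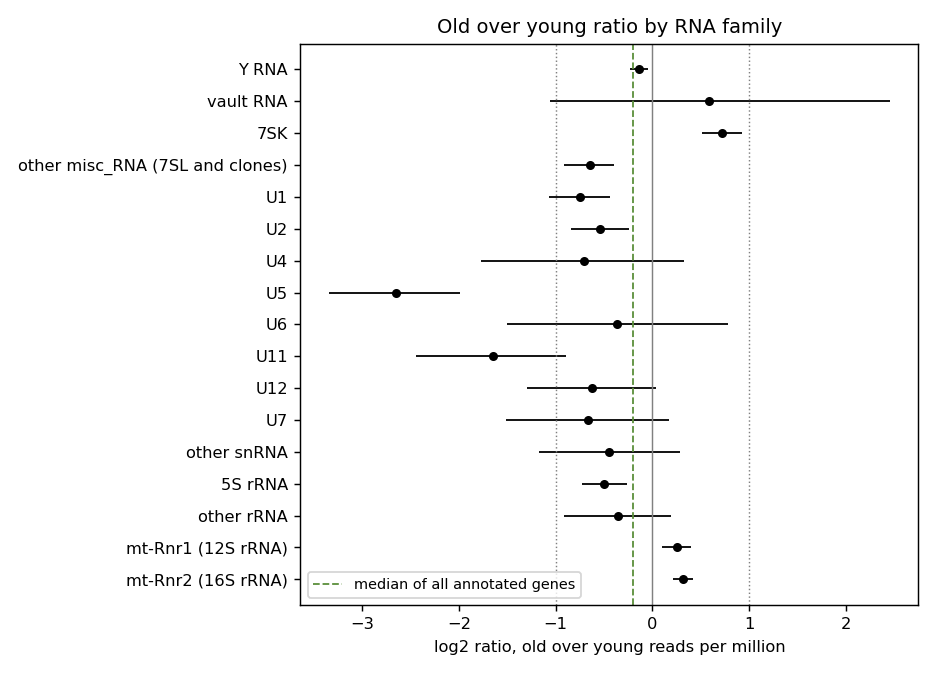
Log2 ratio of old over young RPM for each family with at least 10 reads in a library, with the 95% exact counting interval. The solid line is at 0, the dotted lines are at 2-fold and the dashed line is the median of all annotated genes (-0.20). The points of U5 and U11 lie left of the lower 2-fold line, and 7SK, mt-Rnr1 and mt-Rnr2 lie right of 0 with their whole intervals.

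Y RNA fragments. The Y RNA family had 1714 young and 2288 old reads on 9 of its 24 annotated genes, or 379 and 344 RPM. Its log2 ratio was -0.14 [-0.23 to -0.05], and the sign depended on the scaling, with 0.15 under TMM and 0.03 with the trend on GC content removed. Rny1 (ENSMUSG00000065701, chromosome 6, 47738068 to 47738179, minus strand, mm9) is 112 bases long and had 1290 young and 1721 old reads. Rny3 (ENSMUSG00000064945, chromosome 6, 47731623 to 47731724, plus strand) is 102 bases long and had 337 and 394 reads. In RPM per 100 bases of RNA, the level of Rny1 was 255 young and 231 old, and that of Rny3 was 73.0 and 58.0. The same level was 13.8 and 16.4 for mt-Rnr1 and 7.71 and 15.9 for Rn7sk. Among the named genes, Rny1 had the highest level per length in both libraries.

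The reads came from the ends of the 2 Y RNAs, and each RNA had a different dominant end. A tag was placed by its midpoint. In Rny1, bases 85 to 112 held 77.5% of young and 78.0% of old reads, and bases 1 to 28 held 17.5% and 16.2%. In Rny3, bases 1 to 25 held 90.5% and 90.1%, and bases 77 to 102 held 7.72% and 7.61%. The middle of both RNAs held few reads in either library. The 2 RNAs are identical at 72.3% of 112 aligned positions. In the minimum free energy structure of Rny1 (-34.3 kcal/mol), 17 of the first 24 bases paired with bases 84 to 109, the stretch of the most-read tag. In that of Rny3 (-27.1 kcal/mol), 19 of the first 24 bases paired with the last 26 bases. Both dominant fragments are thus strands of the closing stem in these predicted structures.

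**Figure D3:**
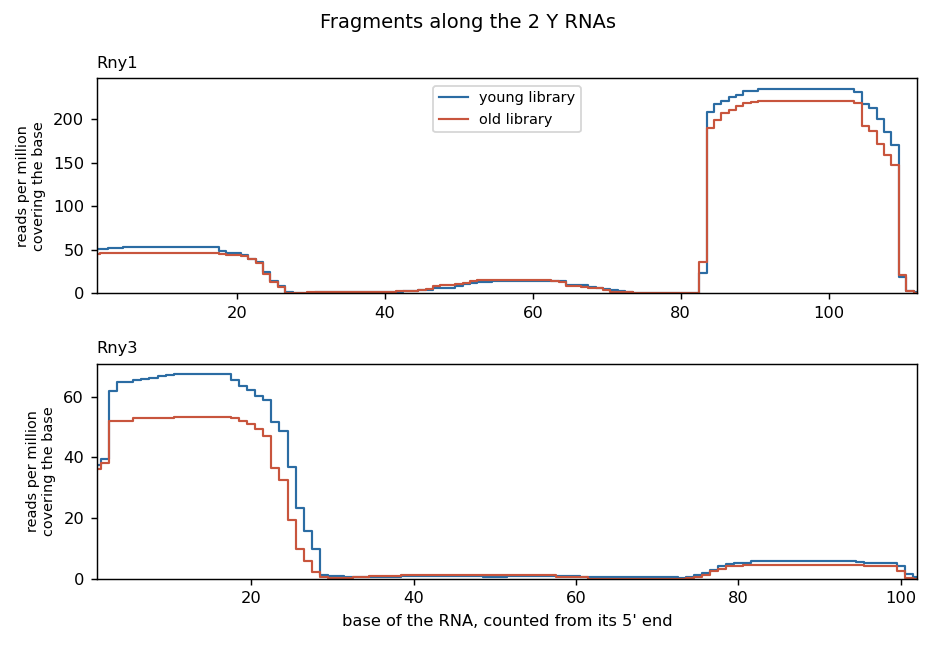
RPM covering each base of Rny1 (top) and Rny3 (bottom), counted from the 5′ end, in the young (blue) and old (red) library. Tags that also match other genes are counted whole. Rny1 is covered mostly from base 84 on and Rny3 mostly over its first 28 bases, and the profiles of both libraries have the same outline.

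The counts by first base of the Rny1 3′ fragments differed between the ages. Tags from base 84 had 839 young and 1027 old reads (-0.27 [-0.40 to -0.13]). Tags from base 83, 1 base longer at the 5′ end, had 102 and 239 reads (0.67 [0.33 to 1.02]), and their interval does not overlap that of base 84. The difference was not the same for each tag. The most-read tag from base 83, which ends at base 104, had 36 and 118 reads (1.15 [0.61 to 1.74]), while the tag that ends at base 108 had 24 and 32 (-0.14 [-0.95 to 0.68]) and the one that ends at base 105 had 12 and 18 (0.03 [-1.11 to 1.21]). From base 84, the tag that ends at base 104 had 25 and 56 reads (0.61 [-0.10 to 1.35]). The tags from bases 83 and 84 that end at bases 103 to 105 also match a Y_RNA copy on chromosome 18 (ENSMUSG00000077588), which had 48.5 and 113 divided reads (0.67 [0.17 to 1.18]). Tags from base 86 had 15 and 56 reads (1.34 [0.50 to 2.27]). The most-read tag of all members, from base 84 to base 109, had 657 and 789 reads (-0.29 [-0.44 to -0.14]). Among tags that match Rny1, those of the old library thus began more often at bases 83 and 86, relative to base 84. Since tags stop at 26 nt, those from base 83 were seen only to base 108, those from base 84 to base 109 and those from base 86 to base 111. The starts are therefore compared over different 3′ ends. Part of the reads from base 83 cannot be told apart from those of the copy on chromosome 18.

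The 3′ fragments of Rny1 were at the longest length the files hold. Of the reads from base 84, 78.3% young and 76.8% old ended at base 109, which makes 26 nt. From base 86, 46.7% and 58.9% of the reads ended at base 110, at 25 nt, and from base 87 the share was 56.5% and 54.2%, at 24 nt. The gene ends in 4 T. At the 5′ end, Rny1 tags from base 1 had 230 young and 302 old reads (-0.16 [-0.42 to 0.09]) and ended most often at bases 23 and 24. Among them, the 17-nt tag had 22 and 10 reads (-1.70 [-2.94 to -0.56]) and the 23-nt tag 53 and 85 (0.12 [-0.39 to 0.65]). The shortest tag was therefore lower in the old library while the most-read one was not. Over all perfectly matching tags, reads of 17 to 19 nt were also a smaller share in the old library (4.88% young and 3.77% old).

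Rny3 fragments from base 1 had 169 young and 242 old reads (-0.04 [-0.33 to 0.25]), and those from base 3 had 101 and 92 (-0.69 [-1.12 to -0.27]). Their lengths differed between the ages. The 26-nt tag from base 1 had 17 young and 5 old reads (-2.32 [-4.12 to -0.83]) and the 26-nt tag from base 3 had 32 and 10 (-2.24 [-3.43 to -1.18]). The 24-nt and 22-nt tags from base 1 had 33 and 67 reads (0.46 [-0.16 to 1.11]) and 30 and 64 reads (0.54 [-0.11 to 1.21]). Both 26-nt tags were thus lower in the old library, while the intervals of the 2 shorter tags include 0. Over all Y RNA reads the share of 26-nt reads was 46.6% young and 40.7% old, while over all perfectly matching tags it was 0.353% and 0.194%, a pool made up mostly of miRNA reads. The share of 26-nt reads was higher in the old library in 5S rRNA (5.44% and 9.78%) and in the other misc_RNA genes (5.78% and 9.77%).

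The other Y RNA genes are copies whose reads were largely shared with Rny1. Besides the copy on chromosome 18, the copy ENSMUSG00000065721 (chromosome 6, 122573565 to 122573676, plus strand) had 19.2 young and 34.4 old reads (0.28 [-0.56 to 1.17]). No antisense read was found on the Y RNA genes.

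The 1 vault RNA gene with reads (ENSMUSG00000065145) had 5 young and 11 old reads, or 1.11 and 1.65 RPM (0.58 [-1.06 to 2.46]). Vault RNA is the RNA of the vault particle, and its most-read tag had 0 young and 2 old reads. A difference between the ages was not detectable at this depth.

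7SK fragments. Reads on 7SK genes were 268 young and 649 old, or 59.2 and 97.5 RPM, and the ratio of 0.72 [0.51 to 0.93] was the highest of the families with over 100 reads. Rn7sk itself (ENSMUSG00000065037, chromosome 9, 78023110 to 78023440, minus strand, 331 bases) had 115 and 351 divided reads (1.05 [0.74 to 1.36]). It was higher in the old library under each alternative, but the value fell to 0.98 when scaled by the reads on miRNA genes. Counted whole, the tags on Rn7sk had 263 and 636 reads, which is less than 2-fold higher by RPM. The 5′ and 3′ parts of the RNA differed. Counting each tag whole and by its midpoint, bases 1 to 165 of Rn7sk had 94 young and 119 old reads (-0.22 [-0.62 to 0.19]) and bases 166 to 331 had 169 and 517 (1.06 [0.80 to 1.31]). Within the 3′ part, tags from base 212 had 29 and 89 reads (1.06 [0.44 to 1.72]), tags from base 240 had 5 and 48 (2.71 [1.38 to 4.39]) and tags from base 245 had 21 and 75 (1.28 [0.56 to 2.05]). The intervals of the 5′ and 3′ parts do not overlap, so the higher count in the old library came from the 3′ part.

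Rn7sk tags from the 3′ part were among the 5 highest tag ratios. They were picked by their ratio and are part of the 3′ reads above, so they are a description only. The tag of bases 240 to 261 had 1 young and 16 old reads (3.44 [0.76 to 8.83]), and that of bases 245 to 266 had 1 and 12 (3.03 [0.27 to 8.44]). The most-read 7SK tag, of bases 212 to 235, had 21 and 62 reads, with an interval of 0.27 to 1.79 for its log2 ratio, and 20 matches. Among the named 7SK copies, the log2 ratios were those of ENSMUSG00000065911 (0.18 [-0.70 to 1.10]), ENSMUSG00000065824 (0.20 [-0.70 to 1.13]), ENSMUSG00000065254 (0.72 [-0.56 to 2.17]) and ENSMUSG00000064397 (0.86 [-0.74 to 2.74]). Each interval of a copy includes 0.

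The run CCATTGTAGG was found in 80 member tags, or 2.48% of them, on the 7SK and mt-Rnr2 genes. It occurs on the sense strand of 3 of the 2244 member genes (0.134%). The 7SK tags with the run had 46 young and 139 old reads (1.04 [0.55 to 1.55]), and those without it 222 and 510 (0.64 [0.41 to 0.88]). The mt-Rnr2 tags with the run had 89 and 242 reads (0.89 [0.53 to 1.25]), and those without it 1060 and 1863 (0.26 [0.15 to 0.37]). The run was picked after the 7SK tag that holds it was seen to have the highest ratio, so these values are a description. The tags without the run include those of the 5′ part of Rn7sk (-0.22) and those from base 1 of mt-Rnr2 (-1.28). The whole 3′ part of Rn7sk, with and without the run, had a log2 ratio of 1.06. The difference between tags with and without the run was therefore not separated from their position in the RNA. Of the 5 tags with the highest ratios, 1 holds the run in full. The Rn7sk tag of bases 245 to 266 and the mt-Rnr2 tag of bases 506 to 527 hold 9 of its 10 bases, and the rest lack it. Tags with the run overlap each other and are not independent.

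7SL and other misc_RNA fragments. The remaining misc_RNA genes carry clone names, and 94.9% of their reads were of tags that lie on Rn7s1 (listed as AC099934.1, ENSMUSG00000092665, chromosome 12, 70260282 to 70260578, plus strand), a 7SL gene. This group had 271 young and 254 old reads (-0.65 [-0.91 to -0.40]), and was lower in the old library under each alternative. Rn7s1 and Rn7s2 (AC157822.1) held the same 318 tags and had 63.4 young and 64.0 old divided reads each (-0.55 [-1.07 to -0.02]). AC156953.1 had 45.0 and 40.4 reads (-0.72 [-1.37 to -0.07]) and CT025673.1 25.0 and 19.2 (-0.94 [-1.88 to -0.02]), and all their tags also lay on Rn7s1. Tags from base 80 of Rn7s1 had 30 young and 8 old reads (-2.46 [-3.80 to -1.31]).

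RNase P RNA, the RNA of the enzyme that trims the 5′ ends of tRNA precursors, had 7.36 young and 0.50 old divided reads (-4.44 [-14.57 to -0.79]). RNase MRP RNA, which acts in rRNA processing, had 8 and 5 reads (-1.24 [-3.19 to 0.56]), and 17 bases at its 5′ end gave its most-read tag (gctcgctctgaaggcct, 2 reads in each library). The RNase P interval lies below 0, but it was computed on divided reads and is approximate. Counted whole, the RNase P tags had 10 young reads and 1 old read. Both families had under 10 divided reads in each library.

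Among the major spliceosome snRNAs, fragments of U1, U2 and U5 were lower in the old library by RPM. U1, which pairs with the 5′ splice site, had 183 young and 160 old reads, or 40.5 and 24.0 RPM (-0.75 [-1.07 to -0.44]). U2, which pairs with the branch point, had 184 and 186 reads, or 40.6 and 27.9 RPM (-0.54 [-0.84 to -0.24]). U5, which holds the exons together, had 102 and 24 reads, or 22.6 and 3.60 RPM (-2.65 [-3.35 to -1.99]). U1 and U5 were lower in the old library under each alternative, and U2 reached 0.02 under DESeq2 size factors and 0.03 with single-match tags only. U4 had 18 and 16 reads (-0.71 [-1.77 to 0.33]) and U6, the catalytic snRNA, 14 and 16 (-0.37 [-1.50 to 0.78]), and a difference was not detectable in either. Most copies of U6 are repeats, and U6 tags with over 60 matches were not members.

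The U5 difference lay at the 5′ end of the RNA. The U5 gene with the most reads (ENSMUSG00000075763, chromosome 9, 65044379 to 65044494, minus strand, 116 bases) had 64 young and 3 old whole reads from base 1 (-4.97 [-7.29 to -3.36]). Bases 59 to 116 had 14 and 13 (-0.66 [-1.87 to 0.53]). The 17-nt tag from base 1 had 30 young and 0 old reads, at least 14.7-fold lower in the old library against a floor of 3 reads per library. It had 25 perfect matches in the genome and lay in 7 member genes. Its reads therefore cannot be placed on U5 genes with certainty. The longer tags from base 1 had 34 and 3 reads (-4.06 [-6.41 to -2.39]). The 5 U5 copies called lower had log2 ratios of -3.23 to -1.84. These calls share their evidence, since each tag from base 1 had 11 to 25 matches, and all 26 U5 tags in exons of other genes lay in B930036N10Rik, which holds a U5 copy. Of the U5 tags, 26 of 56, with 79 young and 10 old reads, also lay in an exon of another gene, and the other tags had 23 and 14 reads (-1.27 [-2.35 to -0.25]). Without those tags U5 was still lower in the old library, by less. U5 had 9 single-match tags, with 8.73% of its 126 reads. With single-match tags only, the gene ENSMUSG00000075763 turned from -1.84 to 1.44, a value that rests on few reads. The number of member genes at least 2-fold lower was then 1 in place of 6, as it was without tags in other exons, and it was 0 with a minimum of 50 reads.

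U1 showed a difference at its 5′ end too, with fewer reads. Bases 1 to 41 had 20 young and 5 old reads (-2.56 [-4.33 to -1.10]), counted on ENSMUSG00000064817 (chromosome 3, 96290478 to 96290642, minus strand). Bases 83 to 123 had 91 and 95 (-0.50 [-0.93 to -0.06]). The tag at the last 18 bases of U1 had 11 young and 20 old reads (0.30 [-0.83 to 1.51]). In U2 (ENSMUSG00000065767, chromosome 11, 101488680 to 101488870, plus strand) bases 96 to 143 held 63.8% of young and 59.4% of old reads, and tags from base 111 had 34 and 52 reads (0.06 [-0.60 to 0.72]). Both libraries thus had most U2 reads in the same stretch.

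Among the minor spliceosome snRNAs, U11 had 47 young and 22 old reads, or 10.4 and 3.30 RPM (-1.65 [-2.45 to -0.89]), and U12 had 41 and 39 (-0.63 [-1.30 to 0.04]). U11 pairs with the 5′ splice site of minor introns and U12 with their branch point. The U11 gene with the most reads (ENSMUSG00000077323, chromosome 4, 131825995 to 131826128, minus strand, 134 bases) kept 76.6% of young and 86.4% of old reads in bases 101 to 134. It was the 1 lower gene outside U5, with 37.8 and 18.8 divided reads (-1.56 [-2.44 to -0.73]). Rnu12 (ENSMUSG00000065176, chromosome 15, 82980074 to 82980224, plus strand) had 25.5 and 24.0 reads (-0.65 [-1.51 to 0.22]). U4atac had 1 and 2 reads and U6atac 3 and 3.

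U7 had 27 young and 25 old reads (-0.67 [-1.51 to 0.17]), nearly all from the U7 gene ENSMUSG00000089083 (chromosome 6, 124691243 to 124691304, minus strand). This gene is 62 bases long, and 88.9% of young and all 25 of the old reads ended within its last 5 bases. All U7 reads also lay in an exon of another gene on the same strand. The 21 snRNA genes of other names had 33 and 36 reads, and 97.6% of the whole reads of their tags were of tags that also lie on U2 genes.

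Among reads on the annotated nuclear rRNA genes, almost all were of 5S rRNA. The annotation limits this result, since 309 of its 332 nuclear rRNA genes were 5S and 2 were 5.8S. Fragments of an rRNA without an annotated gene of this type could not be counted. The 5S genes had 294 young and 307 old reads, or 65.1 and 46.2 RPM (-0.50 [-0.73 to -0.26]), and the ratio was 0.06 under DESeq2 size factors and 0.18 with single-match tags. The reads were divided over 106 genes that share most of their tags. Named by the first of 32 genes with the same tags, n-R5s100 (chromosome 8, 126062686 to 126062804, minus strand, 119 bases) held 69.3% of its young and 75.0% of its old whole reads in bases 30 to 59. Within it, tags from base 31 had 54 and 40 reads (-0.99 [-1.62 to -0.37]) and tags from base 37 had 15 and 37 (0.74 [-0.16 to 1.72]). The tag gatctcgtctgatctcgga at bases 31 to 49 had 19 and 9 reads (-1.64 [-2.96 to -0.42]). The old library thus had fewer reads from base 31, while the interval for base 37 includes 0.

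5.8S rRNA (n-R5-8s1, ENSMUSG00000065922) had 4 and 5 reads, and the 21 other nuclear rRNA genes had 55 and 63, of which 99.7% of the whole reads were of tags on 5S genes.

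Mitochondrial rRNA fragments were higher in the old library. mt-Rnr1 (ENSMUSG00000064337, chromosome M, 70 to 1024, plus strand) had 597 young and 1045 old reads, or 132 and 157 RPM (0.25 [0.10 to 0.40]). mt-Rnr2 (ENSMUSG00000064339, chromosome M, 1094 to 2675, plus strand) had 1149 and 2105 reads, or 254 and 316 RPM (0.32 [0.21 to 0.42]). Both kept their direction under each alternative. Mitochondrial tRNA genes had 28474 and 32198 RPM (0.18 [0.17 to 0.19]), while snoRNA genes had 7849 and 6826 RPM (-0.20 [-0.22 to -0.18]). Both mitochondrial classes were thus higher in the old library. The snoRNA ratio is smaller than the TMM shift of 0.29, so its sign depends on the scaling.

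The mt-Rnr2 fragments at the 5′ end went the other way from the RNA as a whole. Tags from base 1 had 273 young and 166 old reads (-1.28 [-1.56 to -0.99]), and the most-read of them, bases 1 to 21, had 115 and 74 (-1.19 [-1.64 to -0.76]). From base 505 the reads were 70 young and 210 old (1.03 [0.63 to 1.44]) and from base 963 they were 72 and 172 (0.70 [0.29 to 1.12]). Bases 1 to 395 had 342 and 299 reads (-0.75 [-0.98 to -0.52]), and bases 396 to 791 had 212 and 520 (0.74 [0.50 to 0.97]). Bases 792 to 1186 had 363 and 842 (0.66 [0.48 to 0.84]) and bases 1187 to 1582 had 232 and 444 (0.38 [0.15 to 0.61]). Reads from base 1 made 23.8% of young and 7.89% of old mt-Rnr2 reads. Tags from base 1359 had 28 and 41 reads (-0.01 [-0.74 to 0.74]). The fragment from base 1 was thus lower in the old library, and the internal starts at bases 505 and 963 were higher, but not each internal start was. Single-match tags held 65.0% of mt-Rnr2 reads. The tags of bases 1 to 21, 505 to 528 and 506 to 527 had 2 perfect matches in the genome, so their reads cannot be placed on mt-Rnr2 with certainty.

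In mt-Rnr1 the tags from base 1 were also lower in the old library. Tags from base 1 had 37 young and 31 old reads (-0.81 [-1.55 to -0.09]). Bases 478 to 716, which held 67.2% of young and 66.1% of old reads, had 401 and 691 (0.23 [0.05 to 0.41]). Its starts gathered at base 516 (54 and 82 reads), base 517 (55 and 103) and base 518 (62 and 91). The most-read tag of mt-Rnr1, agcttaaaactcaaaggacttggcg at bases 504 to 528, went the other way with 36 and 23 reads (-1.20 [-2.03 to -0.41]). So did tggaaagtgtgcttggaa at bases 934 to 951, with 11 and 5 (-1.70 [-3.57 to -0.05]).

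Among the tags with the highest ratios of all members, 3 were of mt-Rnr2. The tag atggtgtagaagctattaatggtt at bases 1360 to 1383 had 1 young and 14 old reads (3.25 [0.53 to 8.65]). The tag gataaaaggaactcggcaaacaa at bases 806 to 828 had 1 and 12 (3.03 [0.27 to 8.44]). The tag cattgtaggcctaaaagcagcc at bases 506 to 527 had 0 and 10, at least 2.26-fold higher in the old library.

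**Figure D4:**
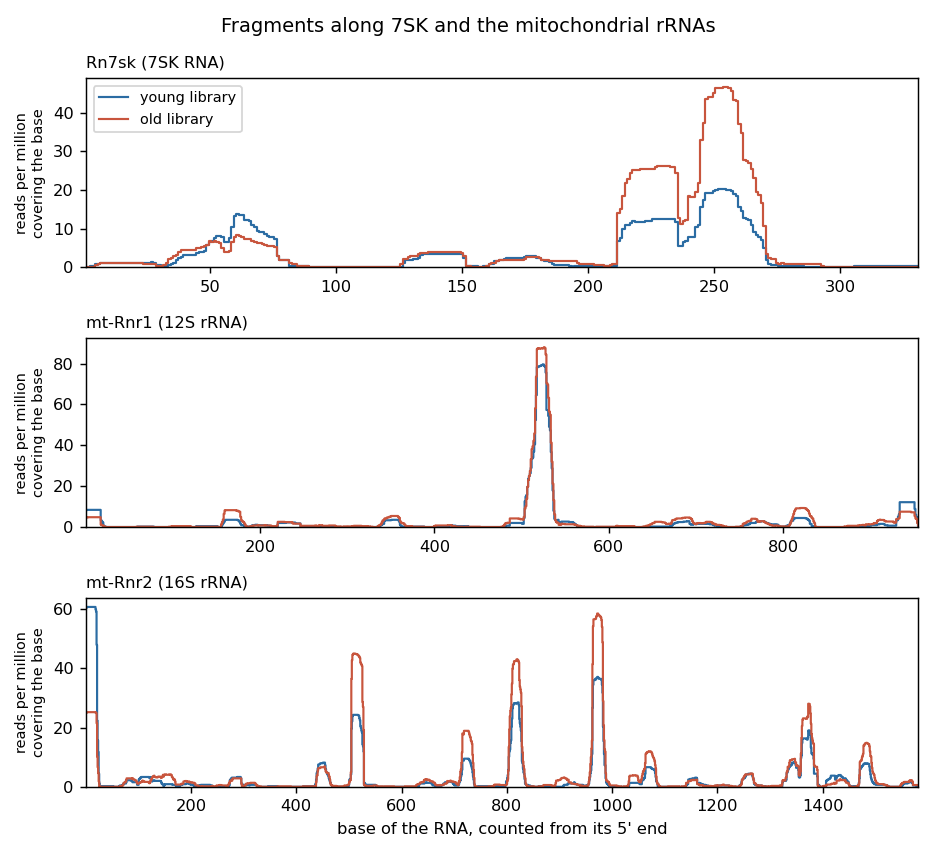
RPM covering each base of Rn7sk, mt-Rnr1 and mt-Rnr2, counted from the 5′ end, in the young (blue) and old (red) library, with tags that match other genes counted whole. The old library is higher over bases 212 to 270 of Rn7sk and over the peaks of mt-Rnr2 from bases 505 and 963, and the young library is higher at the first bases of mt-Rnr2 (273 and 166 reads from base 1).

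The length of the fragments varied between families. Over all fragments the median was 22.0 nt young and 23.0 nt old. The median length of Y RNA reads was 25.0 nt in both libraries, and that of the reads on miRNA genes was 22.0 nt. Reads of 26 nt made 46.6% and 40.7% of Y RNA reads and 0.0174% and 0.00495% of the reads on miRNA genes. The U1 fragments were shorter, with 54.1% and 49.4% of reads at 17 to 19 nt. For mt-Rnr2, 62.9% and 63.4% lay at 20 to 24 nt. Reads of 17 to 19 nt made 59.8% of young and 25.0% of old U5 reads. A lower share in the old library was not particular to U5. It was 4.88% and 3.77% over all perfectly matching tags, 37.0% and 23.6% in 5S rRNA and 30.2% and 19.4% in 7SK. The share was higher in the old library over mitochondrial tRNA genes (31.5% and 39.0%) and in U12 (14.6% and 20.5%), among others. The first base was A in 67.0% and 64.9% of mt-Rnr1 reads and in 58.3% and 52.4% of mt-Rnr2 reads, while miRNA reads began with T (read from U) in 82.0% and 88.3%. Over all member genes, 9 young and 11 old reads lay on the antisense strand, against 5026 and 7262 on the sense strand.

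**Figure D5:**
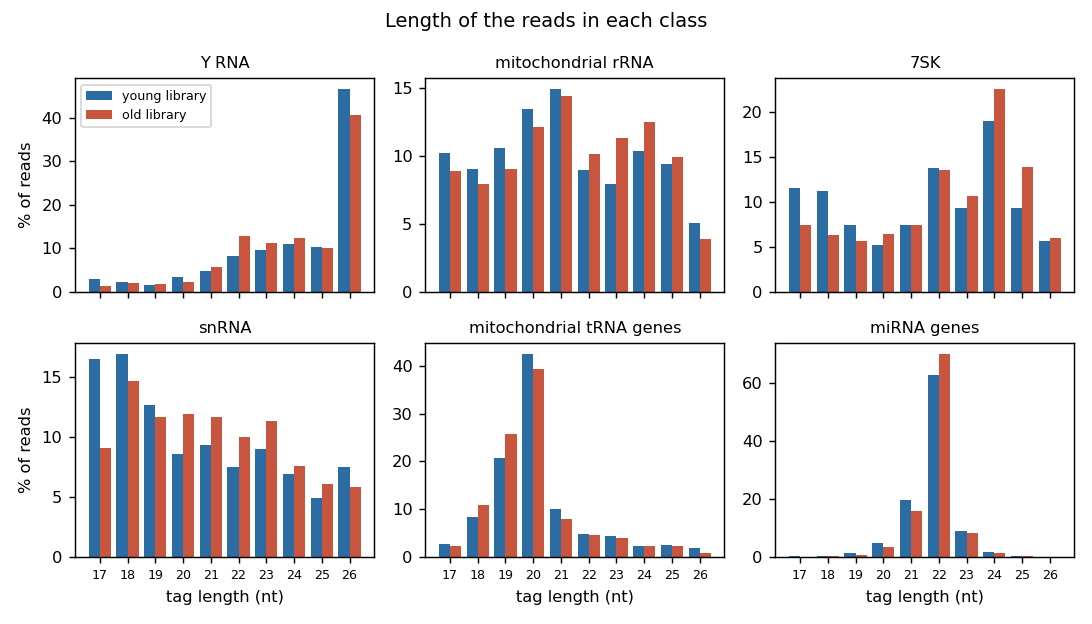
Share of reads (%) at each tag length from 17 to 26 nt in the young (blue) and old (red) library, for 4 classes of members and for mitochondrial tRNA and miRNA genes. The vertical scales differ between panels. Y RNA reads peak at 26 nt (46.6% and 40.7%), the longest length in the files, and miRNA reads at 22 nt.

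Most tags had few reads. Of the 3228 member tags 797 were found in both libraries and 59.9% were read once over both, against 31.7% of tags on miRNA genes, 58.5% on snoRNA genes and 81.8% of all tags. The most-read tag held 36.1% of all Y RNA reads and 11.8% of all member reads, where the most-read tag held 19.7% of reads on miRNA genes, 55.9% on snoRNA genes and 35.0% on mitochondrial tRNA genes. In mt-Rnr2 the most-read tag held 5.81% of reads, and in U7 38.5%. With the Rny1 tag of bases 84 to 109 left out, the misc_RNA ratio was 0.02 in place of -0.06.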

How the data were processed

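Small RNAs of 18 to 30 nt from whole brain of male mice were sequenced by the authors in 36-nt reads, with 1 library per age, each combined from 2 mice. The authors removed the 3′ adapter (up to 3 mismatches), aligned the reads to mm9 with SOAP (version not given in the sources used here) and collapsed identical sequences. The deposited values are raw read counts per distinct sequence, with no normalization. Totals were 4523267 (young) and 6658732 (old) reads. A count of 0 allows up to 3 reads, or 0.663 and 0.451 RPM. Undetermined bases were present in 4.57% and 1.07% of reads.

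Tags were matched without mismatch to both strands of NCBIM37 (mm9) and assigned to GENCODE M1 genes with a script (Python 3.11.15, pandas 2.3.3, scipy 1.17.1, samtools 1.23.1). Tags with over 60 matches were left out, and reads were divided evenly over the member genes of a tag. Ratios were scaled by total reads, a 0 was set to 0.5 in a ratio, and genes and tags with at least 10 reads in a library were counted as changed from 2-fold on. Intervals on divided reads are approximate. The ratio and its interval were tested on simulated data. Alternatives used TMM factors (edgeR 4.0.16) and DESeq2 1.42.0 size factors only for scaling; no count model was fitted with 1 library per age. Structures were predicted with ViennaRNA 2.7.2. RefSeq names (assembly GRCm38.p6) were given to 7 of the 494 genes that lie between the same protein-coding genes and differ by at most 5 bases in length. The members and lists were chosen with earlier results of these data known. Named are each family, its most-read gene and tag, the 15 genes and 10 tags with the most reads, and the 5 highest and 5 lowest ratios of genes and of tags. Sequences matching chromosome 18 are not printed.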

Additional observations from a re-analysis of the deposited data

Results flagged for a closer look

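Reads outside the rule for members were found on the same genes. Tags with over 60 perfect matches that occur in these genes had 800 young and 711 old reads, in 442 tags, or 177 and 107 RPM (log2 ratio -0.73 [-0.88 to -0.58]). They were flagged as a signal in data the comparisons do not use. Of these reads, 464 young and 333 old fell to the other misc_RNA genes (-1.04 [-1.24 to -0.83]), 144 and 159 to U6 (-0.42 [-0.75 to -0.08]) and 110 and 147 to 5S rRNA (-0.15 [-0.51 to 0.22]). U6 thus had more reads in tags with over 60 matches than in member tags (14 and 16 reads).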

How the results depend on the processing

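No paired analysis was possible because there is 1 library per age, and leaving out a replicate was not possible either. Values below are log2 ratios of old over young. All fragments (-0.03 as reported) gave 0.27 with TMM factors, 0.53 with DESeq2 size factors, 0.17 with the GC trend removed, -0.09 when scaled by miRNA reads, 0.10 with single-match tags, and, in alternatives chosen after seeing the data, -0.11 with the tags of over 60 matches added and 0.03 without 26-nt tags. misc_RNA (-0.06) gave 0.23 with TMM, 0.50 with DESeq2, 0.17 without the GC trend, and, also chosen after seeing the data, -0.19 with the tags of over 60 matches, 0.06 without 26-nt tags and 0.02 without the most-read tag. snRNA (-0.86) gave -0.57, -0.30 and -0.69 with TMM, DESeq2 and without the GC trend, nuclear rRNA (-0.47) gave -0.18, 0.09 and -0.04, and 0.27 with single-match tags, and mitochondrial rRNA (0.29) gave 0.59, 0.85 and 0.41. Both DESeq2 size factors were 1, so that alternative removes the depth scaling. The number of genes at least 2-fold higher (1) became 3 with TMM, 5 with DESeq2, 4 without the GC trend, 79 with no minimum of reads, and 0 when scaled by miRNA reads or by perfectly matching reads. The number at least 2-fold lower (6) became 156 with no minimum, 0 with a minimum of 50 reads, 3 with reads divided over all genomic matches, 1 with single-match tags and 1 without tags in other exons. With single-match tags the U5 gene ENSMUSG00000075763 turned from -1.84 to 1.44, on few reads. Apart from the construction of each alternative, the cause was not tested. Of 1197 values of families, genes and tags, 1142 stayed within the counting interval of the reported value, 54 moved out of it, and 1 value of at least 2-fold, that of the U5 gene, changed sign. In all, 51 of the 1197 values changed sign, among them Y RNA, U2 and 5S rRNA.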
